A study of Trichoderma reesei with 24 samples.

Results

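Chitin is a polymer of N-acetylglucosamine and a structural component of the fungal cell wall. Chitinases of glycoside hydrolase family 18 cut its chains, and N-acetylglucosaminidases release the sugar monomer from the ends and from the short oligomers. In species of *Trichoderma* these enzymes are known for the attack on other fungi, for autolysis of old mycelium and for the remodelling of the wall. The mRNA levels of 10 such genes of the cellulase-producing fungus *Trichoderma reesei* are described here. The genes were taken by identifier from a list of 8 family 18 chitinase genes and the 2 N-acetylglucosaminidase genes *nag1* (TRIREDRAFT_21725) and *nag2* (TRIREDRAFT_23346). They are 10 of the 8755 genes in the table and were listed by gene family.

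The chitinase genes fall into the subgroups A and B of fungal family 18 enzymes. Subgroup A was represented by *chi18-5* (TRIREDRAFT_80833), the counterpart of the endochitinase ECH42 of *T. atroviride*, and by *chi18-4* (TRIREDRAFT_62645). Subgroup B was represented by *chi18-12* (TRIREDRAFT_43873), the counterpart of CHIT33 of *T. harzianum*, *chi18-13* (TRIREDRAFT_119859), *chi18-14* (TRIREDRAFT_124043), *chi18-15* (TRIREDRAFT_59791), the counterpart of CHIT36 of *T. harzianum*, *chi18-16* (TRIREDRAFT_68347) and *chi18-17* (TRIREDRAFT_110317).

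RNA-Seq was performed on mycelium of the Δ*nsd3* strain and of its parent TU6, called the wild type (WT). The parent descends from strain QM9414 and needs added uridine because it lacks *pyr4*. The gene *nsd3* (TRIREDRAFT_75672) encodes a zinc finger transcription factor, and in Δ*nsd3* it was replaced by the *pyr4* marker with the CRISPR-Cas9 system. Each strain was sampled after 24 h on glucose, after 24 h on glycerol, and 8 h and 48 h after transfer to cellulose. The mycelium transferred to cellulose was pregrown for 24 h on glycerol. Each condition was sampled in triplicate, giving 8 groups of 3 libraries. The Δ*nsd3* strain was 1 transformant and differs from WT also in carrying *pyr4*, so the effect of the deletion and that of the marker cannot be told apart.

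The values are in TPM, a unit of transcript abundance that is scaled to gene length and to the total of each library, so that levels can be compared between genes. The deposited TPM of a library summed to 838257 to 886039. Depths estimated from the steps between low values and RefSeq gene lengths were 18.2 to 45.8 M reads in 23 of the 24 libraries. The *nsd3* mRNA was at 0 to 2.42 TPM in the Δ*nsd3* libraries and at 32.2 to 278 TPM in the WT libraries, as the labels state. One WT library from 48 h on cellulose, replicate 2, stood apart from its replicates, with Pearson correlations across genes of 0.948 and 0.942 against 0.984 to 0.996 within the other 7 groups. A gene was tested where it reached at least 1 TPM in at least 3 libraries, which 8 of the 10 genes did, among 7933 genes in all. Fold changes are differences of mean log2(TPM + 1), which understate the change of genes at low levels. A gene was called changed between groups where its log2 fold change was 1 or more in either direction, the 2-fold limit, and limma gave an adjusted p under 0.05, with Benjamini-Hochberg adjustment over the 7933 genes. Without a correction for library composition, the median gene itself differed between the groups compared, by −0.16 on glucose, 0.29 on glycerol, −0.15 at 8 h and 0.03 at 48 h on the log2 scale for Δ*nsd3* over WT.

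Across the 4 conditions, *nag2* was the only one of the 8 tested genes called between the strains. Its mRNA was 3.61-fold higher in Δ*nsd3* than in WT at 8 h on cellulose and 6.36-fold higher at 48 h, in ratios of mean TPM. The other N-acetylglucosaminidase gene, *nag1*, was lower in Δ*nsd3* at 8 h, at 0.569 of the WT mean, without reaching the 2-fold limit. Among the chitinase genes, *chi18-12*, *chi18-15* and *chi18-5* were the genes that rose in WT at 48 h against 8 h on cellulose, and *chi18-15* was at 0.538 of the WT mean at 48 h in Δ*nsd3*, a difference under the 2-fold limit whose adjusted p was 0.00035 with all groups in the fit and 0.073 with only the 2 groups compared.

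**Figure D1:**
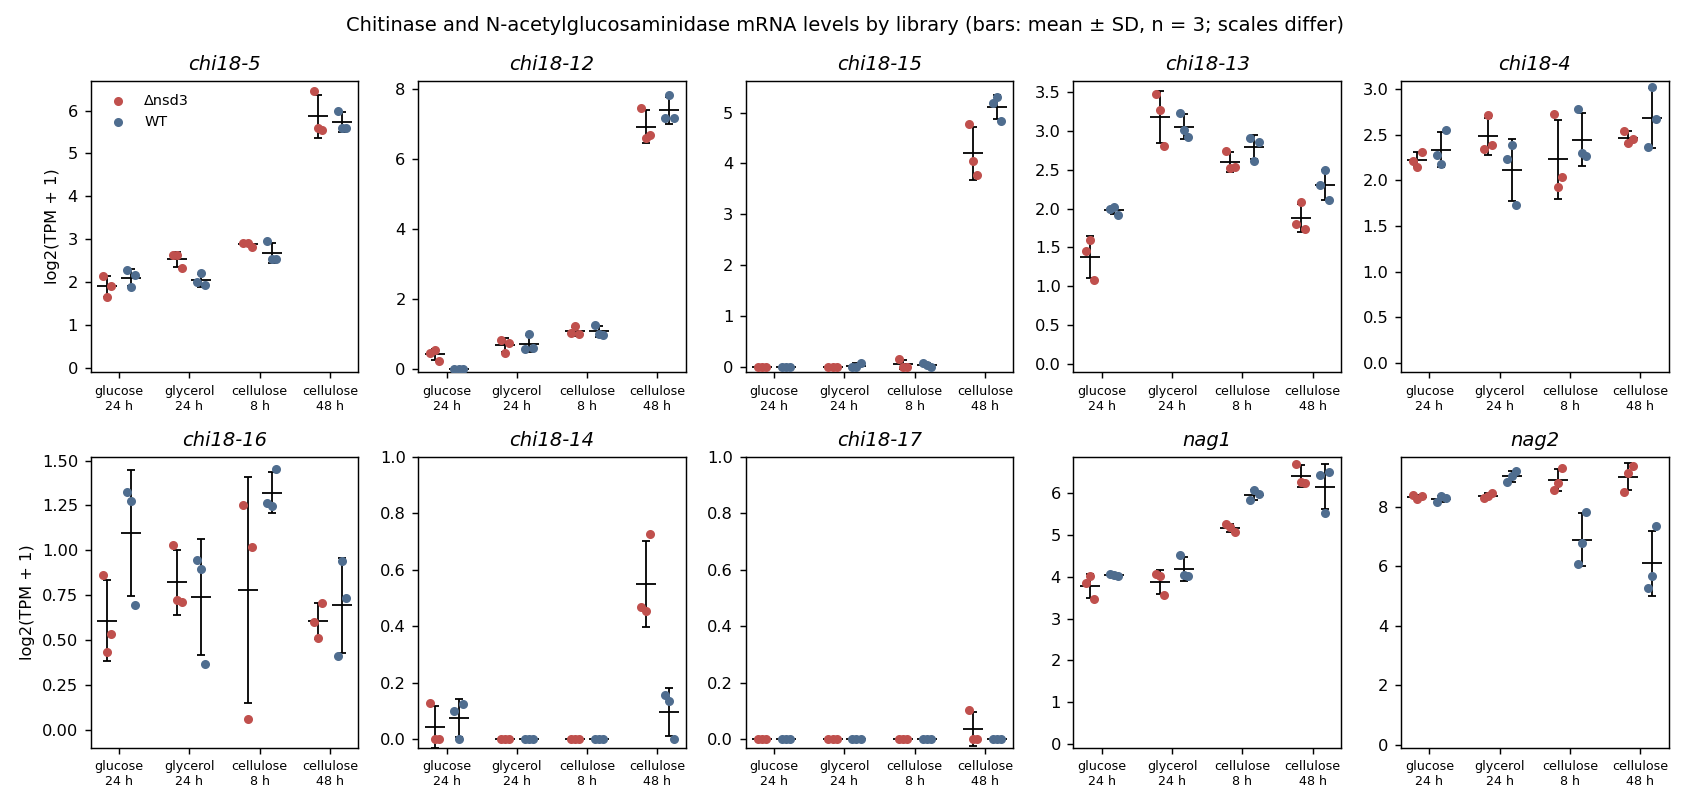
Level of each of the 10 genes as log2(TPM + 1) in the 24 libraries, with Δ*nsd3* left of WT in each of the 4 conditions, points for libraries and bars for mean ± SD (n = 3). The 3 Δ*nsd3* libraries lie above the 3 WT libraries for *nag2* at both cellulose times, while *chi18-12*, *chi18-15* and *chi18-5* are high at 48 h in both strains.

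The N-acetylglucosaminidase gene *nag2* had the highest mean of the 10 genes in 7 of the 8 groups, the exception being WT at 48 h on cellulose, where *chi18-12* was higher. In *T. atroviride* both enzymes take part in growth on chitin, and *nag1* is needed there for the induction of chitinase genes. On glucose, *nag2* was at 337, 306 and 324 TPM in Δ*nsd3*, against 282, 326 and 310.0 TPM in WT. These libraries overlapped, and the log2 fold change of 0.08 did not pass the test (adjusted p = 0.90). On glycerol, *nag2* was at 313, 325 and 350.3 TPM in Δ*nsd3* and at 449.5, 527 and 585 TPM in WT. The 3 Δ*nsd3* libraries lay below the 3 WT libraries, but the log2 fold change of −0.65 ± 0.39 (SE) had an adjusted p of 0.19. With only the 2 groups compared in the fit, the adjusted p was 0.0020, and the difference stayed under the 2-fold limit. Rescaled by the median of ratios, the difference was −1.01 (adjusted p = 0.10).

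On cellulose the order of the strains was the other way round. At 8 h, *nag2* was at 378, 446 and 627 TPM in Δ*nsd3*, against 66.0, 108 and 228 TPM in WT. At 48 h it was at 359.7, 565 and 659 TPM in Δ*nsd3*, against 37.7, 50.2 and 161 TPM in WT. In neither condition did the libraries of the strains overlap, and in WT replicate 3 was the highest both times. The log2 fold change was 1.997 ± 0.39 for 8 h (adjusted p = 0.00023) and, for 48 h, 2.90 ± 0.39 (adjusted p = 4.8e-06). A fit of only the 2 groups compared gave an adjusted p of 0.0012 for 8 h and 0.0062 for 48 h. The log2 fold changes lay between 1.58 and 2.47 at 8 h and between 2.49 and 3.53 at 48 h when single libraries were left out. The gene was called each time. The highest of these values were those without WT replicate 3. In the WT cellulose libraries *nsd3* itself was also highest in replicate 3, at 163 TPM, against 51.2 and 91.2 TPM at 8 h, and at 126 TPM, against 59.9 and 32.2 TPM at 48 h, and its part in the spread of *nag2* was not tested. Without the WT library that stood apart, the 48 h value was 2.70 (adjusted p = 2.7e-05).

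The levels of *nag2* in Δ*nsd3* lay between 306 and 659 TPM in all 12 libraries, while those in WT ran from 37.7 to 585 TPM. In WT the mRNA fell after transfer to cellulose, to 134 ± 84 TPM at 8 h on cellulose, against 520 ± 68 TPM on glycerol (SD, n = 3 each; log2 fold change −2.13 ± 0.39, adjusted p = 7.7e-05). In Δ*nsd3* the mean was 484 ± 130 TPM at 8 h on cellulose and 329 ± 19 TPM on glycerol, a ratio of 1.47, against 0.257 in WT. The change from glycerol to 8 h on cellulose differed between the strains by 2.65 ± 0.55 on the log2 scale (adjusted p = 0.0014). At 48 h against 8 h the WT value for *nag2* was −0.79 ± 0.39 (adjusted p = 0.10). This comparison depended on single WT libraries, since the log2 fold change was −1.42 (adjusted p = 0.0013) without WT replicate 3 of 48 h and −1.21 (adjusted p = 0.021) without WT replicate 1 of 8 h.

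The gene *nag1* had lower levels than *nag2* in 23 of the 24 libraries. On glucose it was at 13.4, 15.3 and 9.98 TPM in Δ*nsd3* and at 15.7, 15.4 and 15.3 TPM in WT, and on glycerol at 15.7, 15.1 and 10.7 TPM in Δ*nsd3* and at 21.9, 15.4 and 15.2 TPM in WT. The strain differences of −0.27 on glucose and −0.31 on glycerol did not pass the test (adjusted p = 0.37 and 0.26). After rescaling by the median of ratios the value on glycerol was −0.65 (adjusted p = 0.0059), still under the 2-fold limit, and that on glucose was −0.087. At 8 h on cellulose *nag1* was at 37.6, 35.6 and 32.5 TPM in Δ*nsd3*, against 56.3, 66.7 and 62.6 TPM in WT. No Δ*nsd3* library reached the lowest WT library. The log2 fold change of −0.80 ± 0.22 had an adjusted p of 0.0050, short of the 2-fold limit, and it was −0.86 to −0.74 when each library was left out in turn. At 48 h *nag1* was at 104, 76.3 and 75.5 TPM in Δ*nsd3* and at 85.9, 45.5 and 90.2 TPM in WT, and these libraries overlapped. The log2 fold change was 0.25 (adjusted p = 0.36), and −0.059 (adjusted p = 0.83) without WT replicate 2, the library with the lowest level.

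In WT, *nag1* was induced at 8 h on cellulose against glycerol, by 1.78 ± 0.22 on the log2 scale (adjusted p = 5.8e-07), and it was not called at 48 h against 8 h (0.19, adjusted p = 0.50). The Δ*nsd3* mean was 2.54-fold higher at 8 h than on glycerol, against 3.54-fold in WT, and this difference of responses was not called. The mean at 48 h was 2.43-fold that at 8 h in Δ*nsd3* and 1.19-fold in WT. These responses differed by 1.05 ± 0.31 on the log2 scale (adjusted p = 0.020). The difference was 0.74 (adjusted p = 0.043) without WT replicate 2 of 48 h. The call was lost without Δ*nsd3* replicate 1 of 48 h (0.90, adjusted p = 0.060) and without WT replicate 2 of 8 h (0.99, adjusted p = 0.052). It was also lost with only the 4 groups compared in the fit (adjusted p = 0.067).

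Both N-acetylglucosaminidase genes together showed a shift in their ratio. The level of *nag2* over that of *nag1* averaged 25.9 in Δ*nsd3* and 19.8 in WT on glucose, and 24.7 in Δ*nsd3* and 31.1 in WT on glycerol. At 8 h on cellulose the ratio was 10.1 to 19.3 in Δ*nsd3*, against 1.17 to 3.64 in WT. At 48 h it was 3.45 to 8.72 in Δ*nsd3*, against 0.438 to 1.78 in WT. The ranges of the strains were apart at both cellulose times and overlapped on glycerol.

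**Figure D2:**
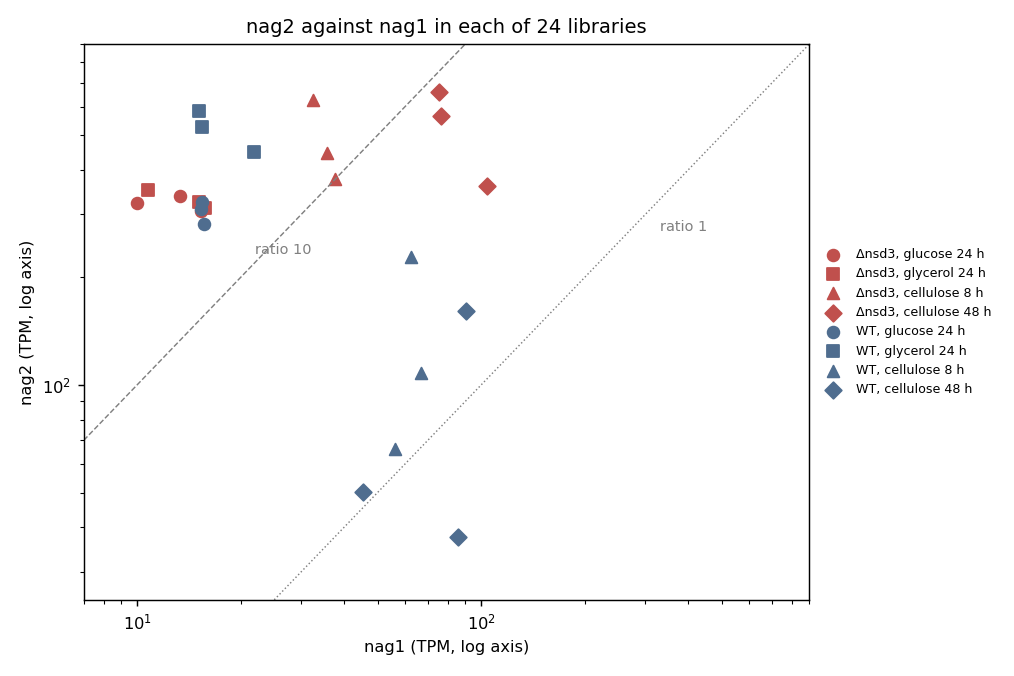
Level of *nag2* (TPM, log axis) against that of *nag1* (TPM, log axis) in each of the 24 libraries, with colour for the strain and symbol for the condition. The WT libraries from cellulose lie lowest on the *nag2* axis, at 37.7 to 228 TPM, while the Δ*nsd3* libraries from cellulose lie at 359.7 to 659 TPM.

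The 8 listed chitinase genes were at low levels outside the 48 h cellulose cultures. In the same groups the 9 other *chi18* genes of the table, described below, summed to means of 413 to 1111 TPM. The 8 genes summed to 8.97 ± 0.94 TPM in Δ*nsd3* and 11.6 ± 0.84 TPM in WT on glucose, to 19.0 ± 3.0 TPM in Δ*nsd3* and 15.2 ± 2.4 TPM in WT on glycerol, and to 17.3 ± 2.7 TPM in Δ*nsd3* and 18.5 ± 3.0 TPM in WT at 8 h on cellulose (SD, n = 3 each). At 48 h the sum was 212 ± 74 TPM in Δ*nsd3* and 269 ± 52 TPM in WT. There *chi18-12*, *chi18-15* and *chi18-5* made up 95.1% to 97.2% of it in Δ*nsd3* and 95.9% to 96.6% in WT.

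**Figure D3:**
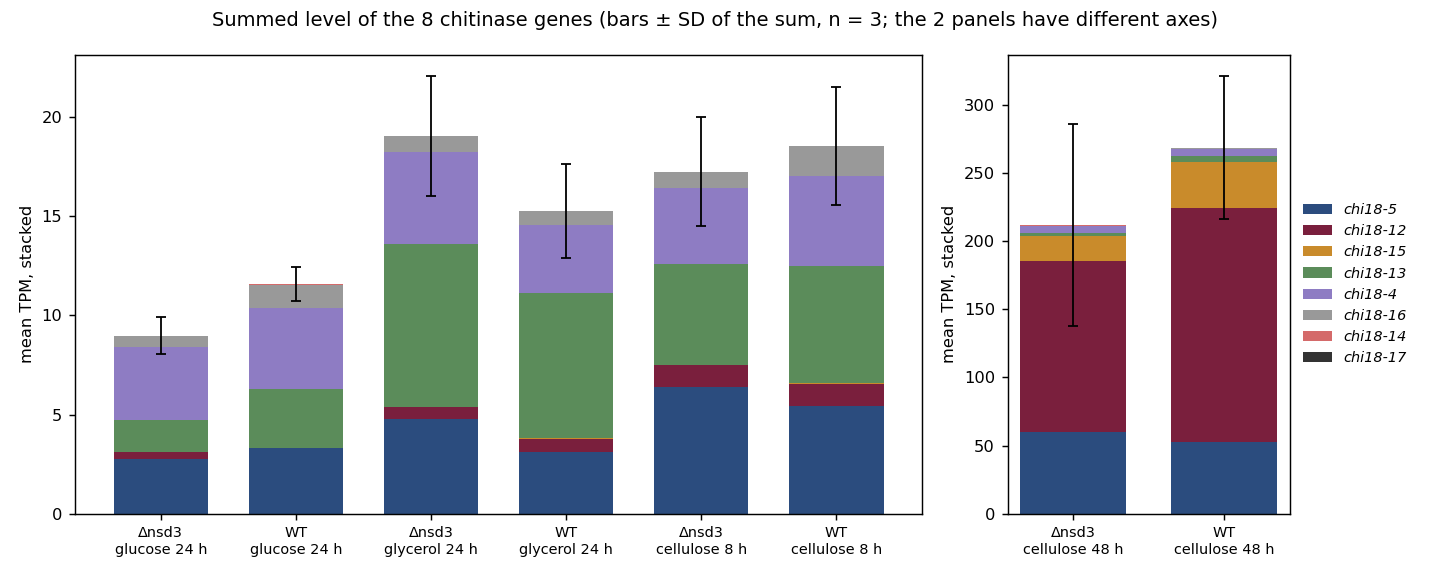
Mean TPM of the 8 chitinase genes stacked by gene in the 8 groups, with Δ*nsd3* left of WT and error bars for the SD of the sum (n = 3), in panels with different axes. At 48 h on cellulose the bars reach 212 TPM in Δ*nsd3* and 269 TPM in WT and consist mostly of *chi18-12* and *chi18-5*, against sums of 8.97 to 19.0 TPM in the other groups.

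The gene with the widest range was *chi18-12*. At 48 h on cellulose it was at 177, 97.2 and 103 TPM in Δ*nsd3*, against 143, 229 and 144 TPM in WT. At 8 h it was at 1.01, 1.32 and 0.984 TPM in Δ*nsd3*, against 1.38, 0.986 and 0.933 TPM in WT. The gene thus had means 114-fold higher at 48 h than at 8 h in Δ*nsd3* and 157-fold higher in WT, and the WT change was 6.34 ± 0.21 on the log2 scale (adjusted p = 2.3e-16). The strains overlapped at 48 h, and their difference of −0.47 ± 0.21 did not pass the test (adjusted p = 0.079). The value depended on single libraries. It was −0.25 (adjusted p = 0.38) without WT replicate 2, the highest WT library, and −0.74 (adjusted p = 0.0058) without replicate 1 of Δ*nsd3*, the highest of its group, and its adjusted p was also under 0.05 without WT replicate 1 or WT replicate 3.

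On glucose *chi18-12* was detected in Δ*nsd3* at 0.375, 0.437 and 0.171 TPM, and it was listed at 0 in the 3 WT libraries. With the RefSeq gene length the Δ*nsd3* values corresponded to an estimated 13.9, 16.2 and 5.8 reads. These are not whole numbers, so that length may not be the one behind the TPM, and the read numbers are rough. The difference of 0.40 ± 0.21 was not called (adjusted p = 0.15), and its size depended on the pseudocount, with 2.04 (adjusted p = 5.8e-05) for log2(TPM + 0.1). On glycerol the gene was at 0.768, 0.367 and 0.662 TPM in Δ*nsd3* and at 0.476, 0.993 and 0.491 TPM in WT, and these libraries overlapped.

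The second gene with this pattern was *chi18-15*. At 48 h on cellulose it was at 26.5, 15.5 and 12.7 TPM in Δ*nsd3*, against 35.5, 38.5 and 27.7 TPM in WT. In the other 18 libraries it did not exceed 0.11 TPM, and it was listed at 0 in 14 of them. The gene thus passed the filter on low values only through the 48 h libraries. Its rise at 48 h follows in part from how it came to be tested. The 48 h levels of the strains did not overlap, with means of 18.2 ± 7.3 TPM in Δ*nsd3* and 33.9 ± 5.6 TPM in WT (SD, n = 3 each). The log2 fold change of −0.91 ± 0.18 had an adjusted p of 0.00035 but was short of the 2-fold limit, and with only the 2 groups compared in the fit its adjusted p was 0.073. It passed that limit without Δ*nsd3* replicate 1, the highest of its group (−1.20, adjusted p = 1.5e-06), and without WT replicate 3 (−1.05, adjusted p = 0.00018). It was −0.82 (adjusted p = 0.0026) without WT replicate 2. Over all fits that left out 1 library it ran from −1.20 to −0.70, with adjusted p up to 0.0042. The rise at 48 h against 8 h in WT was 5.07 ± 0.18 (adjusted p = 3.9e-16), and 8.07 with log2(TPM + 0.1). The rise was smaller in Δ*nsd3* by 0.92 ± 0.25 on the log2 scale (adjusted p = 0.012). With only the 4 groups compared in the fit, the adjusted p of this difference was 0.11.

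The endochitinase gene *chi18-5* was at 86.4, 47.6 and 45.7 TPM in Δ*nsd3* and at 62.6, 47.3 and 47.1 TPM in WT at 48 h on cellulose. At 8 h it was at 6.57, 6.48 and 6.10 TPM in Δ*nsd3* and at 6.74, 4.83 and 4.78 TPM in WT. The strains overlapped at both times. The mean was 9.39-fold higher at 48 h than at 8 h in Δ*nsd3* and 9.60-fold higher in WT, where the log2 fold change was 3.05 ± 0.21 (adjusted p = 8.0e-11). On glycerol *chi18-5* was at 5.19, 5.16 and 4.01 TPM in Δ*nsd3*, above the 2.98, 3.60 and 2.80 TPM of WT, and the difference of 0.49 ± 0.21 had an adjusted p of 0.071. Rescaled by the median of ratios, it was 0.21 (adjusted p = 0.37). On glucose it was at 3.39, 2.15 and 2.75 TPM in Δ*nsd3* and at 3.85, 2.67 and 3.47 TPM in WT, and these levels overlapped.

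The gene *chi18-13* was the chitinase gene called on glycerol against glucose in WT. On glycerol it was at 10.04, 8.61 and 6.004 TPM in Δ*nsd3* and at 8.40, 7.05 and 6.55 TPM in WT. On glucose it was at 1.74, 2.03 and 1.12 TPM in Δ*nsd3* and at 2.98, 3.04 and 2.78 TPM in WT. The strains overlapped on glycerol, and on glucose each Δ*nsd3* library lay below each WT library. This difference of −0.60 ± 0.18 was short of the 2-fold limit (adjusted p = 0.013), and its adjusted p was 0.096 without replicate 3 of Δ*nsd3*. The mean on glycerol was 5.04-fold that on glucose in Δ*nsd3* and 2.50-fold in WT. In WT this was a log2 fold change of 1.08 ± 0.18 (adjusted p = 2.5e-05), and without WT replicate 1 of glycerol it was 0.99, under the limit. The response of Δ*nsd3* was larger by 0.72 ± 0.25 (adjusted p = 0.031). The median of all genes differed in the same direction, by 0.44, and after rescaling by the median of ratios the difference of responses was 0.30 (adjusted p = 0.43). The call was also lost in 7 of the 12 fits that left out 1 library, those without Δ*nsd3* replicate 3, WT replicate 1 or WT replicate 2 of glucose, and those without Δ*nsd3* replicates 1 or 2 or WT replicates 2 or 3 of glycerol. The values of all 12 fits ran from 0.58 to 0.91.

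On cellulose *chi18-13* had its higher levels at 8 h. Then it was at 5.69, 4.74 and 4.78 TPM in Δ*nsd3* and at 6.47, 5.11 and 6.23 TPM in WT, and at 48 h at 2.49, 3.22 and 2.34 TPM in Δ*nsd3* and at 3.95, 4.63 and 3.31 TPM in WT. The strains did not overlap at 48 h, where the log2 fold change was −0.43 ± 0.18 (adjusted p = 0.059). The WT change at 48 h against 8 h was −0.49 (adjusted p = 0.032), under the 2-fold limit, and −0.32 (adjusted p = 0.15) after rescaling by the median of ratios.

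In contrast, *chi18-4* stayed between 2.33 and 7.14 TPM in all 24 libraries. Its group means in Δ*nsd3* were 3.69 TPM on glucose, 4.64 TPM on glycerol, 3.84 TPM at 8 h and 4.54 TPM at 48 h on cellulose. In WT they were 4.09 TPM on glucose, 3.42 TPM on glycerol, 4.53 TPM at 8 h and 5.55 TPM at 48 h. Neighbouring groups in the order of these means overlapped throughout, and the gene was called in none of the comparisons. The gene *chi18-16* was close to the limit of the filter, at 0.044 to 1.74 TPM. On glucose it was at 0.815, 0.349 and 0.447 TPM in Δ*nsd3*, against 1.51, 1.42 and 0.619 TPM in WT. These libraries overlapped, and the difference of −0.49 was not called. With log2(TPM + 0.1) it was −0.99 (adjusted p = 0.21). At 8 h *chi18-16* was at 1.38, 0.044 and 1.02 TPM in Δ*nsd3*, against 1.402, 1.38 and 1.74 TPM in WT. The difference at 8 h was −0.54 ± 0.24 (adjusted p = 0.071). Single libraries moved this value, to −0.19 (adjusted p = 0.51) without replicate 2 of Δ*nsd3* and to −0.78 (adjusted p = 0.015) without its replicate 1, and it was −1.36 with log2(TPM + 0.1) and −0.17 with log2(TPM + 5).

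The remaining chitinase genes, *chi18-14* and *chi18-17*, did not pass the filter on low values. The gene *chi18-17* was listed at 0 in 23 libraries and at 0.075 TPM, about 2 reads, in replicate 1 of Δ*nsd3* at 48 h. The gene *chi18-14* was listed at 0 in 16 libraries. At 48 h it was at 0.382, 0.370 and 0.653 TPM in Δ*nsd3*, against 0.114, 0.098 and 0 TPM in WT, and these levels did not overlap. They amounted to about 49.5 reads in Δ*nsd3* and 8.25 reads in WT over 3 libraries each. With no filter the difference was 0.45 on the log2(TPM + 1) scale (adjusted p = 2.1e-05), under the 2-fold limit. The means of 0.468 TPM in Δ*nsd3* and 0.0707 TPM in WT lay below the pseudocount of 1, so the size of this difference depends on the pseudocount.

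Of the 8 tested genes, the comparison of Δ*nsd3* with WT called none on glucose, where 3.14% of all tested genes were called higher and 6.45% lower, and none on glycerol, where 7.39% were called higher and 3.1% lower. In each of these comparisons 1 of the 8 genes had an unadjusted p under 0.05 in limma. At 8 h on cellulose 1 gene, *nag2*, was called higher and none lower, against 9.13% of all genes higher and 8.11% lower, and 3 genes had an unadjusted p under 0.05. At 48 h again *nag2* was called higher and none lower, against 9.29% of all genes higher and 4.16% lower, and 4 genes had an unadjusted p under 0.05. The median log2 fold change of the 8 genes was −0.16 on glucose, 0.03 on glycerol, −0.09 at 8 h and −0.15 at 48 h. Set beside the share of all genes called, 1 of 8 genes is near the background. Rescaling by the median of ratios left *nag2* called at both times, at 2.15 (adjusted p = 0.00052) and 2.86 (adjusted p = 4.4e-05), while the share of higher genes among all calls went to 53.8% on glucose, against 32.7% without it, to 40.5% on glycerol, against 70.4%, and to 63.7% at 8 h, against 53.0%.

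**Figure D4:**
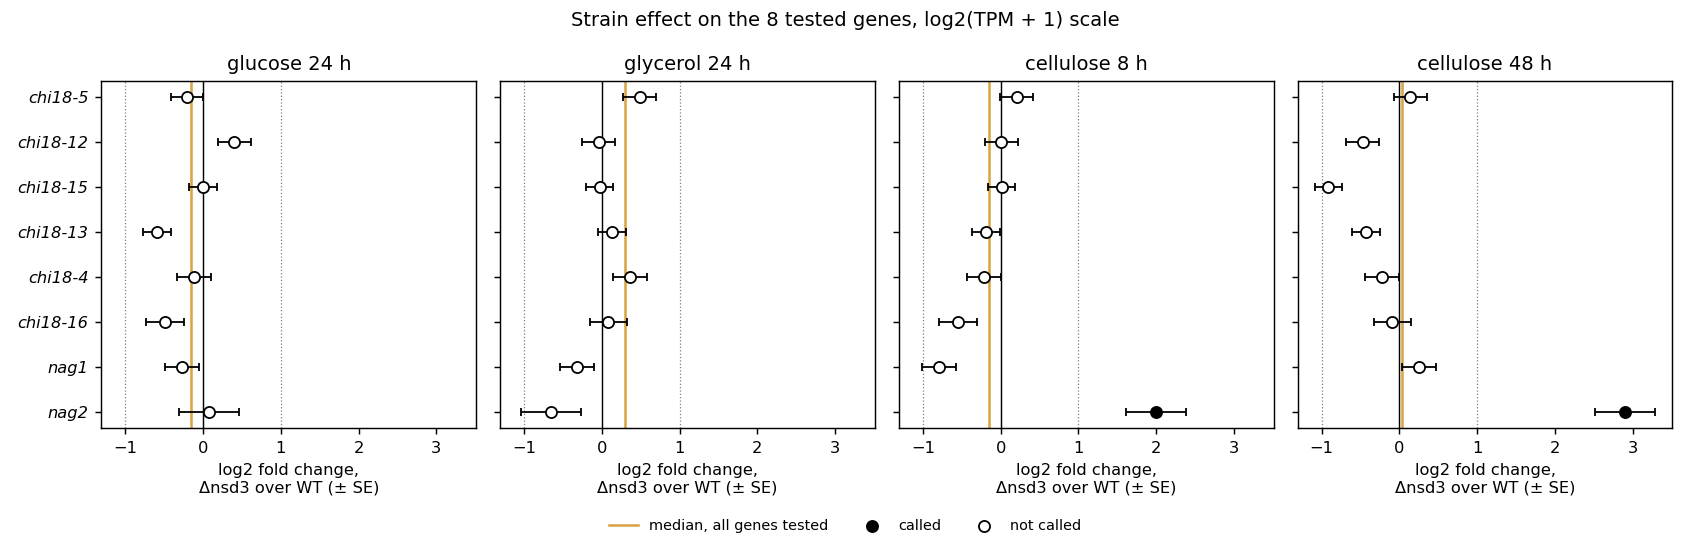
Log2 fold change of Δ*nsd3* over WT, ± SE, on the log2(TPM + 1) scale for the 8 tested genes in the 4 conditions, with filled points for called genes and a vertical line at the median of all genes tested. The filled points are *nag2* at 8 h (1.997) and at 48 h (2.90) on cellulose.

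Within WT, glycerol against glucose called 1 of the 8 genes higher (*chi18-13*) and none lower, against 8.72% of all genes higher and 13.4% lower. The chitinase *chi18-12* had 0.71 ± 0.21 there (adjusted p = 0.0074), under the 2-fold limit. It was listed at 0 in WT on glucose, so that this value depended on the pseudocount, and with log2(TPM + 0.1) the gene was called (2.85, adjusted p = 1.8e-07). Cellulose at 8 h against glycerol called *nag1* higher and *nag2* lower, against 20.9% of all genes higher and 5.03% lower. Cellulose at 48 h against 8 h called 3 genes higher and none lower, against 6.42% of all genes higher and 9.35% lower. The genes with an unadjusted p under 0.05 numbered 2, 4 and 5 of 8 in these comparisons. The median log2 fold change of the 8 genes was 0.09, 0.34 and 0.22, against −0.16, 0.49 and −0.18 over all tested genes. The 3 genes called at 48 h were *chi18-12*, *chi18-15* and *chi18-5*, and without WT replicate 2 of 48 h their log2 fold changes were 6.11, 4.98 and 3.11, all called. Of these, *chi18-15* passed the filter only through the 48 h libraries, so its place in this count follows in part from the filter. After rescaling by the median of ratios the share of higher genes among all calls was 51.5% for glycerol against glucose, where it was 39.4% without it, 45.6% for 8 h against glycerol, where it was 80.6%, and 56.0% for 48 h against 8 h, where it was 40.7%. The calls of *nag1* (1.25) and *nag2* (−2.67) at 8 h against glycerol held after rescaling.

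The responses of the strains to the carbon source and to time on cellulose were then compared directly, as the Δ*nsd3* change minus the WT change. Of the 8 genes, 1 differed for glycerol against glucose (*chi18-13*), where 34.1% of all genes did, 1 for 8 h on cellulose against glycerol (*nag2*), where 38.3% did, and 2 for 48 h against 8 h (*nag1* and *chi18-15*), where 20.2% did, at an adjusted p under 0.05. After rescaling by the median of ratios these shares of all genes were 22.2%, 22.4% and 24.2%. All groups entered more than 1 comparison, so these results share libraries. Rescaling left 3 of these 4 differences, those of *nag2* (3.15, adjusted p = 0.0013), *nag1* (0.86, adjusted p = 0.013) and *chi18-15* (−0.96, adjusted p = 0.0043). The share of positive differences among all genes that differed was 43.8% after rescaling and 88.5% before it for glycerol against glucose, 60.7% and 20.1% for 8 h against glycerol, and 47.2% and 60.6% for 48 h against 8 h.

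**Figure D5:**
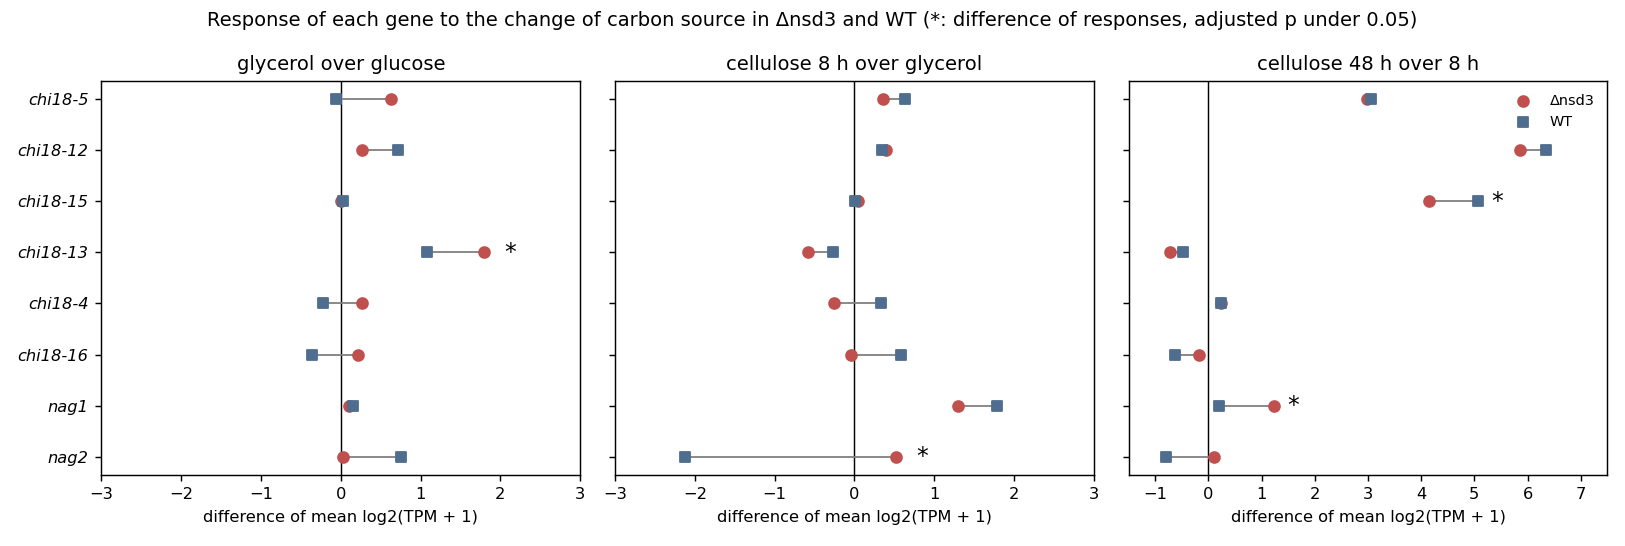
Change of mean log2(TPM + 1) of the 8 tested genes between conditions in Δ*nsd3* (circles) and WT (squares), with asterisks where the changes differed between the strains at an adjusted p under 0.05. For *nag2* from glycerol to 8 h on cellulose the points lie at 0.52 in Δ*nsd3* and −2.13 in WT, and for *chi18-15* from 8 h to 48 h at 4.15 in Δ*nsd3* and 5.07 in WT.

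RefSeq names 10 further *chi18* genes of *T. reesei*, 9 of which were in the table and 7 of which were tested. Of these 7, 1 was called higher and none lower in Δ*nsd3* on glucose, none higher and 2 lower on glycerol, none higher and 2 lower at 8 h, and 2 higher and 1 lower at 48 h. In limma 4, 3, 3 and 5 of them had an unadjusted p under 0.05, and their median log2 fold changes were −0.51, −0.23, −0.39 and −0.27, in the same order. On glucose *chit18-11* (TRIREDRAFT_56448) was at 2.18, 3.47 and 2.45 TPM in Δ*nsd3*, against 0.363, 0.573 and 0.807 TPM in WT (log2 fold change 1.22). The gene *chi18-2* (TRIREDRAFT_59082) was at 178, 208 and 150 TPM in Δ*nsd3*, against 543, 639 and 741 TPM in WT on glycerol (−1.84, adjusted p = 0.015). At 48 h on cellulose *chi18-2* was higher, at 176, 299 and 283 TPM in Δ*nsd3*, against 30.8, 40.2 and 232 TPM in WT (1.88, adjusted p = 0.012). Like *nag2*, this gene had a lower mean in Δ*nsd3* on glycerol, where *nag2* was not called, and a higher mean at 48 h. Both were highest in WT replicate 3 at 48 h. Unlike *nag2*, *chi18-2* was not called higher at 8 h, and its libraries overlapped between the strains at 48 h. The gene *chi18-rel1* (TRIREDRAFT_65162) was lower at 48 h, at 68.9, 43.5 and 34.3 TPM in Δ*nsd3*, against 129, 109 and 113 TPM in WT (−1.29, adjusted p = 0.00037). These 9 genes of the table summed to 702 ± 93 TPM in Δ*nsd3* and 456 ± 175 TPM in WT at 48 h. The 8 chitinase genes above then made up 17.98% to 33.3% of all *chi18* mRNA in Δ*nsd3* and 25.7% to 47.9% in WT. Their share was 1.03% to 7.37% in the libraries from glucose, from glycerol and from 8 h on cellulose.

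Over the 24 libraries, the levels of *chi18-12* and *chi18-15* had a Pearson correlation of 0.990 on the log2(TPM + 1) scale, *chi18-5* and *chi18-12* of 0.981, and *nag1* and *nag2* of −0.381. These points share groups, so the values describe how far the genes separate the same conditions. The genes outside the list with the most similar profile were TRIREDRAFT_124175 and TRIREDRAFT_123726 for *chi18-12* (both 0.993), and TRIREDRAFT_122975 (0.998) and TRIREDRAFT_66077 (0.997) for *chi18-15*. For *nag1* they were TRIREDRAFT_4124 (0.968) and TRIREDRAFT_57975 (0.964), and for *nag2* TRIREDRAFT_39942 (0.941) and TRIREDRAFT_108543 (0.931).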

How the data were processed

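The authors sequenced polyadenylated RNA with a stranded kit, trimmed the reads with Trim Galore 0.6.7, aligned them with HISAT2 2.2.1 and counted them with featureCounts. The strand setting of the counting is not given in the sources used here, so reads of a gene and of an antisense partner cannot be told apart. The table deposited by the authors holds TPM per gene and library, a unit that removes gene length and library total but not composition.

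TPM values were transformed to log2(TPM + 1) and fitted with limma 3.58.1 (R 4.3.3), with 1 mean per group over 24 libraries, moderated variances with an intensity trend, and Benjamini-Hochberg adjustment over 7933 genes. Tables were made with pandas 2.3.3 and numpy 2.4.6 under Python 3.11.15, and figures with matplotlib 3.10.9. Read depth was estimated by dividing low TPM values into whole reads with RefSeq gene lengths. In each of 23 libraries 75.3% to 83.5% of those values came out whole within a tolerance of 0.1, where 20% would by chance, and 1 library (Δ*nsd3*, glycerol, replicate 3) gave no estimate. RefSeq (assembly v2.0) matched 8750 of the 8755 identifiers and gave the symbols of the other *chi18* genes. Reads per gene are approximate, as the gene length behind the TPM can differ from the RefSeq length. The depth estimate and the limma fit were tested on simulated data. The simulated TPM used the same lengths as the depth estimate, so a wrong length could not show there.

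The members and lists were chosen with earlier results of these data known. Besides the 10 genes, the text names *nsd3*, up to 3 other *chi18* genes with the largest strain difference among those called, and for *nag1*, *nag2* and the 2 chitinase genes of widest range the 2 genes of highest correlation. Alternatives were pseudocounts of 0.1 and 5, no filter and a filter at 5 TPM, median-of-ratios and quantile scaling, a fit of only the groups compared, a replicate block, no intensity trend, array weights, and leaving out each library. Same-numbered libraries deviated together, with correlations over 0.1 in all 3 pairs, for the strain comparison on glycerol (0.114, 0.197 and 0.202) and at 48 h (0.214, 0.174 and 0.291), but the pairing comes from these values and not from the labels. The paper gives 3 replicates per strain and condition but does not state whether those on cellulose shared a preculture. Where members are compared with each other, TPM is per length.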

Additional observations from a re-analysis of the deposited data

Results flagged for a closer look

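The responses of the strains to a change of carbon source, or of time on cellulose, differed by test for 4 of the 8 tested genes. They were compared as the Δ*nsd3* change minus the WT change on the log2(TPM + 1) scale in limma. For *nag2* the difference was 2.65 for 8 h on cellulose against glycerol, with 0.52 in Δ*nsd3* and −2.13 in WT. For *nag1* it was 1.05 for 48 h against 8 h, with 1.24 in Δ*nsd3* and 0.19 in WT. For *chi18-15* it was −0.92 for 48 h against 8 h, with 4.15 in Δ*nsd3* and 5.07 in WT. For *chi18-13* it was 0.72 for glycerol against glucose, with 1.80 in Δ*nsd3* and 1.08 in WT. Only the first of these kept its call in all alternatives run.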

How the results depend on the processing

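The strain calls of *nag2* on cellulose held under all alternatives run, with log2 fold changes of 1.96 to 2.15 at 8 h and 2.47 to 2.92 at 48 h apart from the fits that left out a library. Counts of called genes among the 8 changed as follows. With log2(TPM + 0.1) they were 1 for the strains on glucose, 2 for WT on glycerol against glucose, and 3 and 1 for the differences of responses to glycerol and to 48 h. With log2(TPM + 5) they were 0 for WT on glycerol against glucose and 0 for its difference of responses. Quantile scaling gave 2 for the strains at 48 h, and quantile and median-of-ratios scaling gave 0 for the glycerol difference of responses. A fit of only the groups compared gave 3 for the glycerol difference and 0 for the 48 h difference, and array weights gave 4 for glycerol and 3 for 8 h. Leaving out each library gave 1 to 2 genes for the strains at 48 h, 0 to 1 for WT on glycerol against glucose, 3 to 4 for WT at 48 h against 8 h, and 0 to 1, 1 to 3 and 1 to 3 for the differences of responses to glycerol, 8 h and 48 h. The count of 3 for 8 h came without Δ*nsd3* replicate 1 of 8 h. The cause of these changes was not tested.

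The replicate block changed no call of the 8 genes in the comparisons of strains or within WT, and gave 2 instead of 1 for the glycerol difference of responses.

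Directions turned only for values that had not been called. Quantile scaling gave 0.011 (*chi18-5*) and 0.12 (*chi18-4*) for the strains on glucose, −0.23 (*chi18-13*) and −0.055 (*chi18-16*) on glycerol, −0.025 (*chi18-12*) at 8 h, and −0.10 (*chi18-5*) for WT at 8 h against glycerol. Without scaling, this last value was 0.64, under the 2-fold limit. Its adjusted p in limma was then 0.013 to 0.072 when each library was left out in turn. Median-of-ratios scaling gave 0.044 (*chi18-4*) on glucose, and −0.19 (*chi18-13*) and −0.051 (*chi18-16*) on glycerol. Array weights gave −0.011 (*chi18-15*) at 8 h, and −0.10 (*chi18-5*) and −0.18 (*nag1*) at 48 h. Leaving out each library gave −0.12 to 0.10 (*chi18-12*), −0.016 to 0.31 (*chi18-13*) and −0.10 to 0.19 (*chi18-16*) on glycerol, −0.067 to 0.10 (*chi18-12*) and −0.038 to 0.037 (*chi18-15*) at 8 h, and −0.15 to 0.30 (*chi18-5*), −0.23 to 0.032 (*chi18-16*) and −0.059 to 0.43 (*nag1*) at 48 h. A filter at 5 TPM left 7 of the 10 genes, without *chi18-16*.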
